A study of Mus with 4 samples.

Results

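The genes described here encode the pocket proteins (Rb1, Rbl1 and Rbl2), the DP subunits (Tfdp1 and Tfdp2) and the MuvB core (Lin9, Lin37, Lin52, Lin54 and Rbbp4). They were taken as a fixed list of 10 named genes out of 49939 genes annotated on the main chromosomes, of which 21883 are protein-coding, and all 10 were found in the annotation. For each gene, the TBX3 ChIP score was read near the gene ends, inside the gene and in the sequence flanking it. The rule for the list uses no measured value, but the list was drawn up with earlier results of these data known. Across all of these positions, no TBX3 region was called at any of the 10 genes, and 0.672% of protein-coding genes have one. The highest scores near the ends of the 10 genes were spread around the median of protein-coding genes.

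The series holds 2 TBX3 ChIP libraries and 2 Input libraries from primary mouse hepatocytes grown in culture. All 4 carry the construct pT2-SVNeo-EF1-eGFP-P2A-Tbx3-HA, in which the EF1 promoter drives mouse Tbx3 with an HA tag together with green fluorescent protein, so the bound protein is an overexpressed one and no library without the construct was analysed here. The cells received this construct by transposition and were selected with G418. ChIP was done with an antibody against HA, whereas Input is sheared chromatin that was not immunoprecipitated. The sources used here do not give the age or sex of the animals behind these cultures. Expression was not measured in these libraries, so the hepatocyte label could not be set against marker genes.

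Pocket proteins hold E2F transcription factors on cell cycle genes and keep those genes off. DP proteins are the dimerization partners through which most E2F factors bind DNA. In resting cells the pocket protein p130 (Rbl2) or p107 (Rbl1), an E2F-DP dimer and the MuvB core form the DREAM complex, a repressor of cell cycle genes. When cells enter the cycle, MuvB leaves the pocket protein and joins the activators B-MYB (Mybl2) and FOXM1 (Foxm1) on mitotic genes. The study centres on E2f7 and E2f8, repressors of the same family that bind DNA without a DP partner and act as brakes on division in hepatocytes. Whether TBX3 also lies at the genes for the other repressors of this system was the question put to the data here.

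The authors deposited a single track of −log10 p-values, called the score below, in which each value compares the ChIP reads over a base with the number expected from Input. It has no value per library, so none of the scores below has a replicate error. Most of the track follows steps of whole reads. Under the Poisson distribution that gives the score, the expected level is 2.43 reads over most of the genome, where 7 ChIP reads score 2.44, 8 reads score 3.02, 9 reads score 3.65, 10 reads score 4.31, 11 reads score 5.01 and 12 reads score 5.75. A base therefore needed 11 reads to reach 5, the cutoff used here, which is the default of MACS2 for calling peaks from such a track. After Benjamini-Hochberg adjustment over all bases of the track, an adjusted p of 0.05 lay at a score of 5.46. Positions are those of GRCm38 (mm10), and the gene table used here gives no strand, so the ends are called lower and higher by coordinate and both were read.

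Among the pocket protein genes, Rb1 (gene 19645), which encodes the retinoblastoma protein, lies at chr14:73192858-73325951. Its highest score was 1.90 within 1 kb of the lower end and 0.641 within 1 kb of the higher end, from 6 and 3 reads over a base. Of all protein-coding genes, 74.5% had a score at least as high near an end (95% Wilson interval 73.9 to 75.1%). This interval covers the counting of genes only. The share moves in steps of whole reads, from 91.1% at 5 reads to 50.5% at 7. By its highest score Rb1 was among the lower genes in this window, though 7 reads would have placed it at the median.

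Rbl1 (gene 19650), the p107 gene, lies at chr2:157145893-157204534 and scored 2.44 at each end, from 7 reads. This score equals the median of protein-coding genes, and 50.5% of them scored at least as high. By the mean score over the same window, however, Rbl1 was higher in the order, and 12.5% of protein-coding genes had a mean at least as high. Rbl2 (gene 19651), the p130 gene, lies at chr8:91070057-91123844. It scored 3.02 beside its lower end, 516 bp inside the gene, and 1.42 near its higher end. A score as high as 3.02 was found near the ends of 29.0% of protein-coding genes. The higher end of Rbl2 lies within Aktip, a gene that overlaps it by 12064 bp.

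Of the DP genes, Tfdp1 (gene 21781), which encodes the main E2F partner DP1, lies at chr8:13338725-13378448 and scored 2.94 near the lower end and 3.02 near the higher end. Tfdp2 (gene 211586), which encodes a second DP protein, lies at chr9:96196246-96323646. It scored 1.42 near its lower end and 0.999 near its higher end. The 1.42 of Tfdp2 was the lowest end score among the 10 genes, and 91.1% of protein-coding genes reached it. Relative to the median autosome, the ChIP depth of chromosome 9, which holds Tfdp2, was 0.758, whereas that of chromosome 8, with Tfdp1 and Rbl2, was 0.958. Among the genes of chromosome 9 alone, 83.0% reached the Tfdp2 score. By the mean score over the same window Tfdp2 was less low, with 64.6% of protein-coding genes at least as high.

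The MuvB genes ranged from 1.90 to 3.65 near their ends. Lin9 (gene 72568; chr1:180641150-180690687), a scaffold of the MuvB core, scored 1.84 near the lower end and 1.90 near the higher end. Lin37 (gene 75660; chr7:30555441-30559721), which is needed for repression by DREAM, scored 2.44 at each end. At its lower end, 1 of 2 positions with this score lies 787 bp from an end of Hspb6. Hspb6 overlaps Lin37 by 3 bp, so that window serves both genes. Lin54 (gene 231506; chr5:100442033-100500639), the subunit that contacts DNA, scored 2.44 near the lower end and 1.42 near the higher end. Rbbp4 (gene 19646; chr4:129307100-129335370), a histone-binding protein shared with other chromatin complexes, scored 1.90 near the lower end and 0.999 near the higher end. The lower position lies within Sync, a gene that overlaps Rbbp4 by 2284 bp, and a gap of 161 bp separates the higher end from Zbtb8os. Chromosome 4, which holds Rbbp4, had the lowest ChIP depth of the autosomes, 0.698 relative to the median autosome. The end score of Rbbp4 was reached by 74.5% of all protein-coding genes but by 45.6% of those on chromosome 4. None of Lin9, Lin37, Lin54 and Rbbp4 lay above the median of protein-coding genes as a whole. By the mean score over the window, Lin37 and Lin54, which share the highest score of 2.44, stood far apart, with 13.3% of protein-coding genes at least as high as Lin37 and 89.6% at least as high as Lin54.

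Lin52 (gene 217708; chr12:84451508-84531533), which encodes the subunit that joins MuvB to the pocket protein, had the highest end score of the 10 genes. It scored 3.65 near the lower end, from 9 reads, and 1.37 near the higher end. A score of 3.65 near an end was reached by 14.7% of protein-coding genes (95% Wilson interval 14.3 to 15.2%), and its adjusted p was 0.198. The share of genes as high as Lin52 was 33.3% by the mean score and 23.9% with windows of 2 kb. The summit lies at 84450523, outside Lin52 by 985 bp and within Aldh6a1, an enzyme gene of valine breakdown whose end lies 501 bp away. A gap of 483 bp separates the 2 genes, so the same window serves both of them.

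Near gene ends, 0 of the 10 genes reached a score of 5, a level that 3.60% of protein-coding genes reached. None of them passed an adjusted p of 0.05 over all bases either, compared with 2.25% of protein-coding genes. The median over the 10 genes was 2.44, equal to the median of 2.44 over protein-coding genes, with 3 genes above it, 3 at it and 4 below it. A score of 3 was reached by 3 of 10 genes and by 29.1% of protein-coding genes. With windows of 2 kb the number of the 10 genes at 5 or more was again 0, and the background was 5.19%. With both reads of a pair counted as 1 the background was 0.452%, but this lowered the end score of each of the 10 genes, so their count of 0 could not change. The order by mean score differed from that by highest score, with shares of genes at least as high from 12.5% at Rbl1, 13.3% at Lin37 and 14.7% at Tfdp1 to 89.6% at Lin54. None of the counts above sets the 10 genes apart from the background.

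**Figure D1:**
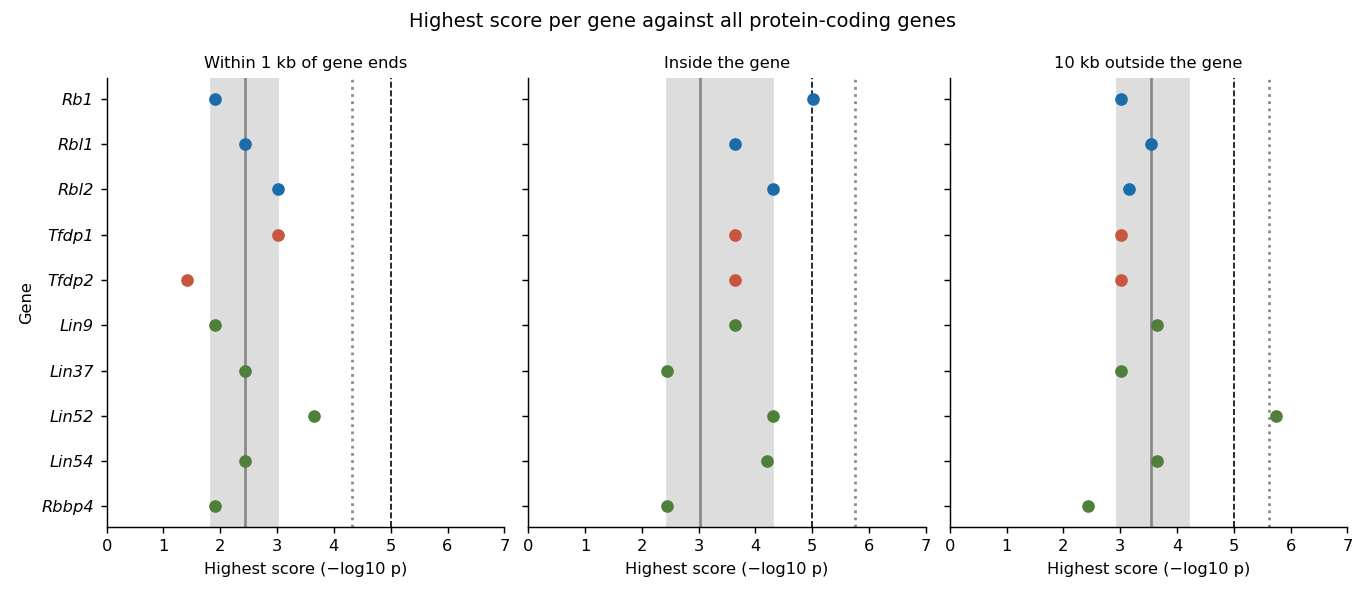
Highest score (−log10 p) of each of the 10 genes within 1 kb of gene ends, inside the gene and in the 10 kb outside it (points; blue, pocket proteins; red, DP; green, MuvB). The grey band spans the 25th to the 75th percentile of 21883 protein-coding genes, the solid line is their median, the dotted line their 95th percentile and the dashed line the cutoff of 5. Only Rb1 inside the gene (5.01) and Lin52 outside it (5.75) reach the cutoff.

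E2f7 and E2f8, the genes on which the study centres, were read in the same way. The paper reports TBX3 binding at both from the ChIP-Seq behind this track, so their high scores here are not independent of its finding. E2f7 scored 22.8 near its lower end, from 31 reads against 2.69 expected, a fold of 11.5 (95% exact Poisson interval 7.82 to 16.3, covering counting error only). E2f7 lies on chromosome 10, where the ChIP depth was 1.40 relative to the median autosome, and its score was 19.8 with the expected level raised to that depth. E2f8 scored 15.5 near its higher end, from 23 reads, a fold of 9.45 (5.99 to 14.2). At Lin52, the highest end of the 10 genes, 9 reads gave a fold of 3.70 (1.69 to 7.02). The Lin52 interval thus ends below that of E2f7 but overlaps that of E2f8. Each of these folds is taken at the highest base of a window, which favours high counts. At this depth a weak site of a few reads more than the background cannot be told from it.

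Inside the genes, Rb1 reached 5.01, Rbl2 and Lin52 4.31, and Lin54 4.20. Rbl1, Tfdp1, Tfdp2 and Lin9 each reached 3.65, whereas Lin37 and Rbbp4 reached 2.44. The median of the 10 genes was 3.65 and that of protein-coding genes 3.02. The 10 genes are also long, with a median length of 56197.5 bp compared with 17170 bp over protein-coding genes, and a longer gene offers more bases at which the highest score can fall. Against genes whose length was within a factor of 1.5, the order changed. For Rbl1, 75.3% of genes of like length had a score at least as high, and for Tfdp2 91.6% and for Rbbp4 94.4%. The corresponding share was 51.9% for Lin37, which is the shortest of them at 4281 bp. The lowest such share was 39.6%, at Rb1.

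The Rb1 score of 5.01 was the only one inside the 10 genes to reach the cutoff, compared with 13.9% of all protein-coding genes and 39.6% of those as long as Rb1. It lies at chr14:73275403, which is 50548 bp from the higher end of the gene. Over this base 11 reads stood against 2.43 expected, a fold of 4.52 (95% exact Poisson interval 2.26 to 8.08). Only 3 bases carried this score, the run of bases at 3 or more was 35 bp long, and the adjusted p was 0.0687. No gene passed an adjusted p of 0.05 in this window, which 7.41% of protein-coding genes did, and 8 of the 10 reached 3, as did 61.9% of protein-coding genes. These shares are over genes of all lengths. Among genes of like length, the share at 5 or more was 2.99% for Lin37 and from 11.5% (Rbbp4) to 39.6% (Rb1) for the others. The single read that lifts 10 to 11 decides whether Rb1 is counted. With each read pair counted once, the score inside Rb1 was 2.79. Lpar6, a receptor gene nested within Rb1, lies 35045 bp from this position.

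In the 10 kb outside the genes, Lin52 scored 5.75 and the others between 2.44 (Rbbp4) and 3.65 (Lin9 and Lin54). Thus 1 of 10 genes reached 5, as did 10.3% of protein-coding genes. The same gene passed an adjusted p of 0.05, as did 5.38% of protein-coding genes. The median of the 10 genes was 3.09, below the 3.55 of protein-coding genes, and 6 of the 10 lay under that value. A score of 3 was reached by 9 of them and by 74.8% of protein-coding genes. With flanks of 20 kb the number at 5 or more was still 1, with a background of 17.8%.

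The Lin52 summit is the highest position of the whole set. It lies at chr12:84442334, 9174 bp beyond the lower end of Lin52, inside Aldh6a1 and 906 bp from an end of Bbof1, a gene for a ciliary protein. Over it 12 reads stood against 2.43 expected, a fold of 4.93 (95% exact Poisson interval 2.55 to 8.61), with an adjusted p of 0.0307. The run of bases at 5 or more was 86 bp long and that at 3 or more 150 bp, whereas the run at 5 or more was 269 bp long at E2f7 and 299 bp at E2f8. With each read pair counted once, the score outside Lin52 was 3.56. The position is nearer to an end of Bbof1 than to Lin52, and the track does not assign it to either gene.

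**Figure D2:**
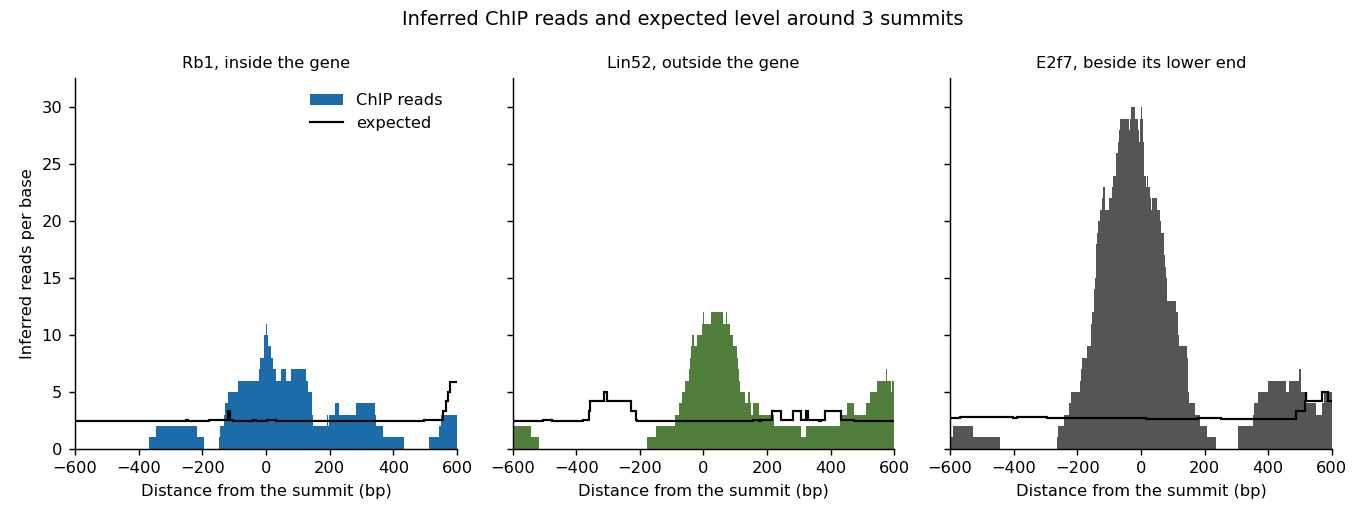
Inferred ChIP reads over each base (filled) and the expected level (black line) within 600 bp of the summit inside Rb1, the summit outside Lin52 and the summit of E2f7. The summits hold 11, 12 and 31 reads, and the expected level at them is 2.43, 2.43 and 2.69 reads.

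Taking each gene together with 10 kb on either side, 833372 bases were searched, of which 89 scored 5 or more. They belong to 2 of the 10 genes, Rb1 and Lin52, and 22.0% of protein-coding genes have such a base. The shares in this paragraph are over genes of all lengths, and none was computed among genes of like length. A base at 3 or more was found at 9 of the 10 genes and at 88.3% of protein-coding genes, and an adjusted p of at most 0.05 at 1 and at 11.9%. None of the 10 genes had a base at 10 or more, a level that 0.279% of protein-coding genes reached near an end, 0.370% inside, 0.443% in the flanks and 0.736% at any of these positions. Bases at 3 or more made up 0.200% of the searched bases and 0.320% of the whole track. With gaps of up to 30 bp joined, they formed 59 runs. Of these, 42 had their summit inside the member of the list that was searched. The other 17 had it in the flanks, where neighbouring genes also lie. Rbl2 had the densest runs, at 12.2 per 100 kb, and Rbbp4 had none, with a median of 7.81 over the 10 genes and of 7.82 over protein-coding genes. The longest run, 150 bp, was the one outside Lin52, and none of the 59 reached 200 bp.

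A region was called where bases at 5 or more formed a stretch of at least 200 bp after gaps of up to 30 bp were joined. The track has 125 of these, and 0 of them overlap the 10 genes or their 10 kb flanks, while 0.672% of protein-coding genes have one. The nearest lies 807818 bp from Lin52, with a summit of 12.6. For the other 9 genes the distance was from 1702543 bp at Tfdp1 to 65019545 bp at Rb1, whose chromosome holds 1 called region.

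**Figure D3:**
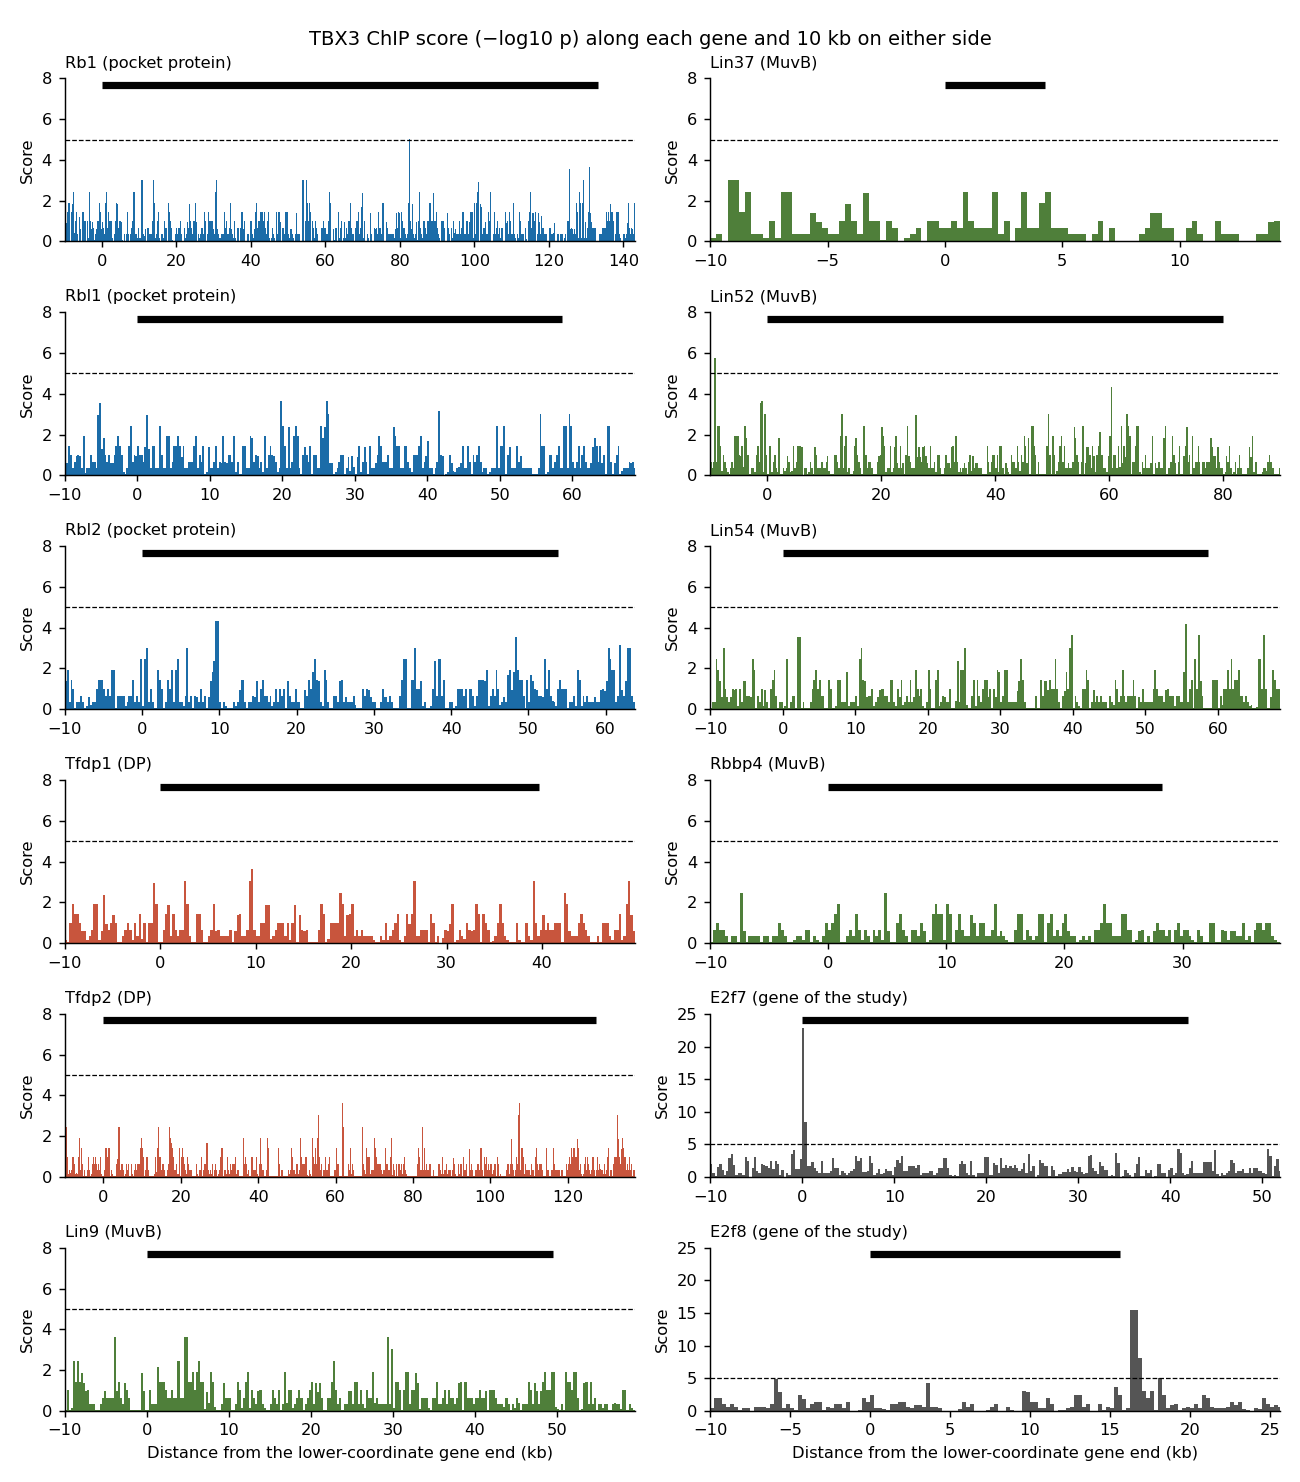
Highest score (−log10 p) in bins of 250 bp along each of the 10 genes and of E2f7 and E2f8, from 10 kb before the lower-coordinate end to 10 kb past the higher-coordinate end. The black bar is the gene and the dashed line the cutoff of 5; the vertical axis ends at 8 for the 10 genes and at 25 for E2f7 and E2f8. The 10 genes show low scores scattered along their length, whereas E2f7 and E2f8 each have a narrow stretch far above the cutoff.

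Because many genes share a highest score, the reads in each window were also summed and divided by the reads expected there. The expected level as inferred has a floor of 2.43 reads, whereas the mean number of ChIP reads over a base was 1.79 on the median autosome and 2.51 on chromosome 10, the highest of the autosomes. The median of this ratio was 0.592 near the ends of protein-coding genes, 0.597 inside them and 0.605 outside them. The ratio varied with the chromosome, and each gene was therefore set beside the median of protein-coding genes on its own chromosome. Intervals are exact Poisson intervals at 95% and cover counting error only.

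Near the ends, Rbl1 had the highest ratio, with 62.5 reads against 70.8 expected, or 0.882 (0.677 to 1.13), compared with a median of 0.651 on chromosome 2. Tfdp1 was at 0.800 (0.608 to 1.03) with a chromosome median of 0.574, and Lin37 at 0.781 (0.590 to 1.01) with a chromosome median of 0.552. These 3 intervals of 10 lie above the chromosome median, as do those of 14.5% of protein-coding genes. With each read pair counted once, which widens the intervals, 0 do, with a background of 7.54%. Relative to the chromosome median, Lin37 was highest at 1.42, followed by Tfdp1 at 1.39, Rbbp4 at 1.37 and Rbl1 at 1.35.

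Lin54 had the fewest reads near its ends, 22.2 against 75.3 expected, a ratio of 0.296 (0.186 to 0.446). The median on chromosome 5 was 0.615, and the Lin54 interval was the only one of the 10 that lay under it, also with pairs counted once. Among protein-coding genes, 12.1% had an interval under the median of their chromosome, and 4.73% with pairs counted once. Both ends were low, with 13.4 reads against 42.8 expected at the lower end and 8.86 against 32.5 at the higher end. Of protein-coding genes, 95.4% had a ratio at least as high. Inside Lin54 the ratio was 0.572, close to the chromosome median of 0.610, so that the low values were found near its ends and not along the gene. E2f7 and E2f8 had ratios of 1.43 (1.18 to 1.71) and 1.08 (0.854 to 1.35) in the same windows. The medians of their chromosomes were 0.757 and 0.552. Relative to these medians, E2f7 stood at 1.89 and E2f8 at 1.96.

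Inside the genes, where more reads were counted, 8 of the 10 intervals held the median of their chromosome. Rb1, with 1362 reads, had a ratio of 0.566 (0.536 to 0.597) beside a chromosome median of 0.578. Tfdp2 had the lowest ratio, 0.444 (0.416 to 0.473), but the median of chromosome 9 was also low, at 0.468. Tfdp1 was at 0.538 (0.487 to 0.594) beside 0.577. Near the ends, the ratio of Tfdp2 was 0.545 (0.387 to 0.747) beside a chromosome median of 0.462, and 28.5% of genes on chromosome 9 were as high. For Tfdp1, at 0.800 near the ends, 13.3% of genes on chromosome 8 were as high. By the highest score near the ends the 2 genes stood further apart. That of Tfdp1 was reached by 27.4% of the genes on its chromosome and that of Tfdp2 by 83.0%.

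The other 2 intervals lay above the chromosome median, as did those of 18.3% of protein-coding genes, while 16.9% of protein-coding genes and none of the 10 lay below it. By reads, the count of 2 is thus near the background. With each read pair counted once, the same 2 intervals still lay above the chromosome median, and no background share was computed for that count. Lin37 was at 0.845 (0.650 to 1.08) beside 0.547, and 6.16% of genes on chromosome 7 were as high. Rbbp4 was at 0.529 (0.465 to 0.598) beside 0.427, and 13.2% of genes on chromosome 4 were as high. These are the 2 shortest genes of the set. Lin37 has 6 protein-coding neighbours within 10 kb, the most of the 10 genes. GC content and other sequence features were not tested.

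Outside the genes, Rbl1 again had the highest ratio, 0.724 (0.642 to 0.813), and Rbbp4 the lowest, 0.385 (0.321 to 0.457), beside chromosome medians of 0.657 and 0.431. Relative to the chromosome median the order differed, with Tfdp2 highest at 1.12 and Lin9 lowest at 0.822, while Rbl1 stood at 1.10 and Rbbp4 at 0.893. Lin9 was the only gene whose interval lay under the chromosome median, at 0.521 (0.450 to 0.601) beside 0.634, and none lay above it. Among protein-coding genes 15.5% lay below and 16.5% above. With pairs counted once none of the 10 lay apart from the chromosome median, with a background of 7.81% below and 8.86% above.

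**Figure D4:**
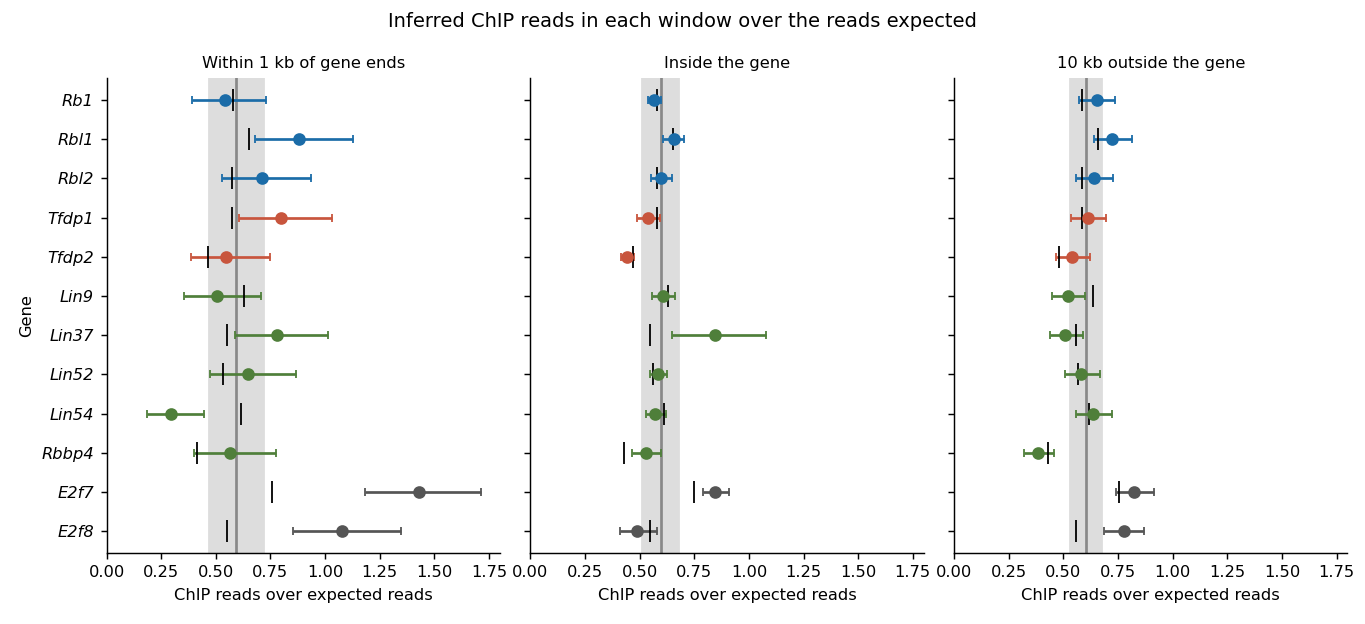
Inferred ChIP reads in each window divided by the reads expected there, for the 10 genes and for E2f7 and E2f8, with 95% exact Poisson intervals for counting error (points and bars; blue, pocket proteins; red, DP; green, MuvB; grey, E2f7 and E2f8). Black ticks are the median of protein-coding genes on the same chromosome, and the grey band and line are the 25th to 75th percentile and the median of 21883 protein-coding genes. Near gene ends the ratios of E2f7 (1.43) and E2f8 (1.08) lie above those of all 10 genes, the highest of which is Rbl1 (0.882). The interval of E2f8 (0.854 to 1.35) overlaps that of Rbl1 (0.677 to 1.13).

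The partners, regulators and targets of these complexes were read in the same windows near gene ends. Near an end, 3.60% of protein-coding genes reached 5, the background for each count of the lists. Of the 8 E2F genes, 2 reached 5, and these are E2f7 and E2f8, the genes the study singled out. The other E2F genes ranged from 1.42 at E2f4 and E2f6 to 3.65 at E2f5. E2f4 and E2f5 encode the E2F subunits of DREAM. None of the 4 genes Mybl1, Mybl2, Foxm1 and Rbbp7 reached 5, with 3.65 at Mybl1 as the highest and 1.90 at Rbbp7, the paralog of Rbbp4, as the lowest.

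Among 16 upstream regulators, 1 reached 5. This was Cdk4, a cyclin D-dependent kinase that phosphorylates pocket proteins, with a score of 7.31 and an adjusted p of 0.00264. Cdk4 also lies on chromosome 10, and its score was 5.49 with the expected level raised to that depth and 4.39 with each read pair counted once. No region was called within 10 kb of Cdk4. The lowest of this list was Dyrk1a, the kinase that phosphorylates LIN52 to assemble DREAM, at 0.999.

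Among 16 known DREAM targets, 1 reached 5. Ect2, which encodes an activator of RHOA needed for cytokinesis, scored 21.9 near an end, with an adjusted p of 1.76e-16, and 11.3 with each read pair counted once, and a region was called there. A score as high was found near the ends of 0.0685% of protein-coding genes. The other 15 targets ranged from 1.37 at Ccnb2, a mitotic cyclin gene, to 4.31 at Cdk1, the mitotic kinase gene. Cdk1 also lies on chromosome 10, and its score was 3.07 with the expected level raised to the depth of that chromosome, below the 3.65 of Plk1, a gene for another mitotic kinase, on chromosome 7. Over the 42 listed genes other than E2f7 and E2f8, 2 reached 5 near an end, beside the 3.60% of protein-coding genes, and their median of 2.44 was that of protein-coding genes. Inside these 42 genes, 5 reached 5, beside the 13.9% of protein-coding genes. Apart from Ect2, they were Cdk6, a kinase that acts with D cyclins, at 7.96, and Cdkn1a, Cdk1 and Bub1 at 5.01 each. In the 10 kb outside, 6 reached 5, beside the 10.3% of protein-coding genes. They were Ect2 at 12.6, Cdk2 and Cdk4 at 7.31, Cdkn1a, the gene for the kinase inhibitor p21, at 5.35, Cdk1 at 5.24 and Ccnd3 at 5.01. Cdk1, Cdk2 and Cdk4 lie on chromosome 10, and their scores inside and outside the genes were not scaled to its depth. The windows near the ends overlap those inside and outside, so the same position can count in more than 1 window. Ect2 had the same 21.9 near an end and inside, and Cdk4 the same 7.31 near an end and outside. Near gene ends, scores of 5 or more were found at E2f7 and E2f8, on which the study centres, at Ect2 and at Cdk4. With pairs counted once Cdk4 scored 4.39, which follows from halving its 14 reads and is no separate evidence. At 3.60% of protein-coding genes, the count of 0 among the 10 genes is near the background.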

How the data were processed

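The series holds 2 TBX3 ChIP and 2 Input libraries, and the submitters' processing notes name Bowtie2, SAMtools, MACS2 and the build mm10. Versions, the handling of duplicates and the combination of replicates are not given in the sources used here. The authors deposited one track of −log10 p-values, which was used as it is. The depth of each library is unknown. The 10 genes and all gene lists were chosen with earlier results of these data known.

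Genes were placed with the RefSeq annotation of GRCm38.p6, and on all 21 main chromosomes the track extends beyond the last of them. Windows were 1 kb around either gene end, the gene itself and 10 kb outside it. The genes named are the 10 genes, E2f7 and E2f8, genes sharing a window with the highest end score of a member, and the listed pathway genes at 5 or more or at the extremes of their list. Lpar6, Aktip, Sync, Zbtb8os and Bbof1, and the pathway genes given for the windows inside and outside, were named after their positions or values were seen. A likeness across conditions cannot be computed from a single track. Shares of genes carry 95% Wilson intervals, and genes are not replicates. These intervals cover the counting of genes only and leave out the step of a single read, which moves a share much further.

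Reads and expected levels were inferred as the whole read count and the Input level that give each score, with reads of 150 bp and an Input scale of 0.835, and a pair was found for 98.4% of bases at 5 or more. Window read numbers are summed pileups divided by 150 bp. The total was 30122876 ChIP reads. Whether both reads of a pair were counted is not given in the sources used here. For the alternative in which each pair is counted once, pileup and expected level were both divided by 2. For scores, the divided pileup was rounded down to a whole number. The 11 reads inside Rb1 thus scored 2.79, as did the 10 reads inside Rbl2. The track holds no record of pairs, so these drops follow from the halving alone. The falls under 5 at Rb1, Lin52 and Cdk4 with pairs counted once were thus fixed by their read numbers. Simulated data were used to test the steps. The work was done in Python 3.11.15 with scipy 1.17.1, numpy 2.4.6, numba 0.67.0, pandas 2.3.3, pyarrow 21.0.0 and matplotlib 3.10.9.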

Additional observations from a re-analysis of the deposited data

How the results depend on the processing

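No paired analysis was possible because the authors deposited 1 track that holds no separate values for the libraries, and for that reason no replicate was omitted in turn. Alternatives that need the strand of genes or the sequence of promoters, including the search for T-box, E2F and cell cycle homology motifs, were not run. The absence of called regions at the 10 genes held under each of the 5 alternatives tried (cutoffs of 3 and 10, a minimum length of 100 bp, gaps of up to 100 bp, flanks of 20 kb), although a cutoff of 10 could not have added one. The share of protein-coding genes with a region was computed for the main setting only (0.672%). The counts of 0 under the alternatives therefore have no background beside them. The count of 0 genes at 5 or more near gene ends was still 0 with windows of 2 kb and became 3 at a cutoff of 3. The other alternatives for this count (a cutoff of 10, an adjusted p, narrower windows, pairs counted once, scaling to chromosome depth) could only lower scores or counts and do not bear on it. For the scaling this holds because it was done only upward. At that cutoff the count became 8 inside and 9 outside the genes, 4 for E2F genes, 2 for the Myb-MuvB partners, 8 for upstream regulators and 6 for DREAM targets, while 29.1% of protein-coding genes reach 3 near an end, 61.9% inside and 74.8% outside. These follow from asking for lower scores. Inside the genes, the count of 1 (Rb1) became 0 at a cutoff of 10, at an adjusted p of 0.05 and with each read pair counted once, where Rb1 scored 2.79. Outside, the count of 1 (Lin52) became 0 at a cutoff of 10, with flanks of 5 kb, which leave the summit out, and with pairs counted once. In both windows the change with pairs counted once was fixed by the halving of the reads. The share of protein-coding genes at a cutoff of 10 was 0.370% inside and 0.443% outside, and 7.41% passed the adjusted p inside. No share was computed for flanks of 5 kb, or for pairs counted once inside or outside. Near an end, counting pairs once lowered the share at 5 or more from 3.60 to 0.452%. With windows of 2 kb the counts were 2 for upstream regulators, adding Cdk2, and 2 for DREAM targets, adding Cdk1, beside 5.19% of protein-coding genes. Both added genes lie on chromosome 10, and their scores in these windows were not scaled to its depth. Scaling the expected level to chromosome depth left the scores of Rb1 and Lin52 as they were, because their chromosomes are below the median depth. For single genes, 3 scores fell under 5, those of Rb1 inside (2.79) and of Lin52 outside (3.65 with flanks of 5 kb, 3.56 with pairs counted once). The other scores stayed on their side of 5 but often moved, as at Lin54 near gene ends (2.44 to 0.368 with narrower windows) and in flanks of 5 kb at Tfdp2 (3.02 to 1.42) and Rbbp4 (2.44 to 0.999). The shares of genes as high as each gene moved beyond their Wilson intervals with the mean score at 9 of 10 genes. With windows of 2 kb they did so at all 10 genes. The share went from 50.5 to 23.9% at Lin54, from 14.7 to 23.9% at Lin52 and from 29.0 to 45.4% at Rbl2 and Tfdp1. Because the intervals leave out the step of a single read, a move beyond them can be smaller than that step. The comparisons with genes of the same chromosome were chosen after seeing the data. At an expected level of 2.43 reads, the cutoff of 5 needs 11 reads over a base, and an adjusted p of 0.05 (a score of 5.46) needs 12. Weaker sites are not counted at these thresholds.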
